A study of Mus musculus with 30 samples.

Results

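Acsl4, Fasn, Fabp5 and Acadl stand at 4 steps in the handling of fatty acids, and their RNA was followed in AtT-20 cells after corticotropin-releasing hormone (CRH). The 4 genes were chosen from the readout itself, since their ratios of CRH-treated to untreated RNA in these arrays were known when they were picked, so the ratios given below describe them and were not tested. On the array the genes have 6 spots among 22830 that hold a clone, and 5 of these are among the 14375 spots measured, that is, brighter in both dyes than the dimmest 10% of spots on all arrays. Spots were found by their number or by the gene names written in the files. The number and the names alone gave 4 spots. Spot 22724 was added because it carries the same name as Acsl4 spot 6750, an expressed sequence that RefSeq lists as a synonym of Acsl4. Spot 18117 was added because its name differs from that of Acadl only in the word "acetyl-" for "acyl-", a spelling the array also uses for the medium-chain and short-chain enzymes.

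AtT-20 cells come from a mouse tumour of the pituitary and resemble corticotropes, the cells that release adrenocorticotropic hormone. The cells were deprived of serum and then given 100 nM human/rat CRH, or left untreated in the same serum-free medium, for 1, 3, 6, 12 or 24 h. At each time point RNA of treated and untreated cells was amplified, labelled with Cy3 and Cy5 and hybridised together to spotted cDNA arrays, 6 for each time point and 30 in all. In 3 arrays of each time point (replicates 1 to 3) the treated RNA carried Cy3, and in the other 3 (replicates 4 to 6) it carried Cy5. The 6 arrays hold 1 pair of RNA extracts. Their SD and the p-values for change over time and its interaction with dye orientation thus measure the spread between hybridisations and not between cultures. The p-values for a CRH effect over the time course come from the 5 time-point means and measure the spread between time points. The arrays were quantified on 4 days: 3 and 6 h shared a day, 1 h had a day of its own, replicates 1 to 4 of 12 h had another, and replicates 5 and 6 of 12 h shared the last with 24 h. The median spot of a channel had an intensity of 457.9 to 2038, and within a time point the arrays had a median SD of log2 ratios of 0.27 to 0.35. In these cultures fewer cells with an RNA and less of that RNA per cell cannot be told apart.

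A fatty acid enters metabolism once it is joined to coenzyme A, and from there it may be built into membrane lipids, stored or burned. Acsl4 is a long-chain acyl-CoA synthetase with a preference for arachidonic acid, Fasn is the cytosolic enzyme that builds palmitate, Fabp5 carries fatty acids through the cytosol, and Acadl makes the entry reaction of mitochondrial beta-oxidation for long chains. In corticotropes CRH acts through a receptor that raises cAMP.

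By RefSeq, on the mouse genome build GRCm38.p6, Acsl4 lies on chromosome X from 142317993 to 142390802 and Fasn on chromosome 11 from 120805958 to 120825166. Fabp5 lies on chromosome 3 from 10012585 to 10016610 and Acadl on chromosome 1 from 66830839 to 66863309. RefSeq promoters, 250 bases before to 50 bases after the start of a transcript, matched 3 of the 4 genes, Fabp5 being the exception. The Acsl4 and Fasn promoters are shown because their RNAs had the widest ranges of ratio over time and moved apart from each other. They were searched on both strands for the cAMP response element TGACGTCA and its core TGACG, which overlaps it, the CCAAT box CCAAT, the sterol regulatory element TCACCCCAC, the E-box CACGTG and the NBRE AAAGGTCA. Capitals mark TGACG in Acsl4 (chrX:142390486-142390785, minus strand) and CCAAT on either strand in Fasn (chr11:120824498-120824797, minus strand).
Acsl4: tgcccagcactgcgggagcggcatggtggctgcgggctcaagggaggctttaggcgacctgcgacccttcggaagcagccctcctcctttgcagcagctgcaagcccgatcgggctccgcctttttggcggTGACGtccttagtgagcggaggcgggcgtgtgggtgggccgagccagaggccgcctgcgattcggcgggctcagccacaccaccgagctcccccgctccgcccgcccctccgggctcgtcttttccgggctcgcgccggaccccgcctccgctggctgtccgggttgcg
Fasn: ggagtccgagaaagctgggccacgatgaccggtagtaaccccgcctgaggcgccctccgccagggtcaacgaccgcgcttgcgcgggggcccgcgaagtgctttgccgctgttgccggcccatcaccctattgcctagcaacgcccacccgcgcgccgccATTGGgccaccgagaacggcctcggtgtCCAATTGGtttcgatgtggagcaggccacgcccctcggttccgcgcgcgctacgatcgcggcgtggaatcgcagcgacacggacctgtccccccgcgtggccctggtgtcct
Positions count from the transcript start of each window, which in Acsl4 and Fasn lies inside the gene range given above. TGACG stood from -119 to -115 in Acsl4, and 20.8% of 32851 RefSeq mouse promoters of this length hold it on either strand. CCAAT had 3 matches in Fasn, from -90 to -86, -62 to -58 and -59 to -55, the last 2 overlapping, and 37.4% of promoters hold it. The full TGACGTCA (1.79% of promoters), TCACCCCAC (0.551%), CACGTG (7.15%) and AAAGGTCA (1.51%) were not found in the windows of Acsl4, Fasn or Acadl. The Acadl window (chr1:66863260-66863559) held none of the 6 motifs.

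Ratios are log2 of CRH-treated over untreated RNA, after a loess correction in each print-tip block of the array. Over time the 5 measured spots of the 4 genes took different courses. Acsl4 spot 6750 had its highest mean at 6 h (0.44, SD 0.42, n = 6 arrays) and its lowest at 24 h (-0.55, SD 0.25), Fasn spot 3130 was low at 1 h (-0.44, SD 0.12) and above 0 on average thereafter, and Fabp5 had positive means from 3 h on, with its highest at 12 h (0.35, SD 0.20). Acadl lay below 0 on average at 1 h (-0.35, SD 0.39) and near 0 later. None of the 25 means of a spot at a time point reached 1.5-fold (0.585 on the log2 scale) with all 6 arrays on one side, a size rule that 81 of 14375 measured spots (0.563%) met at some time point.

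**Figure D1:**
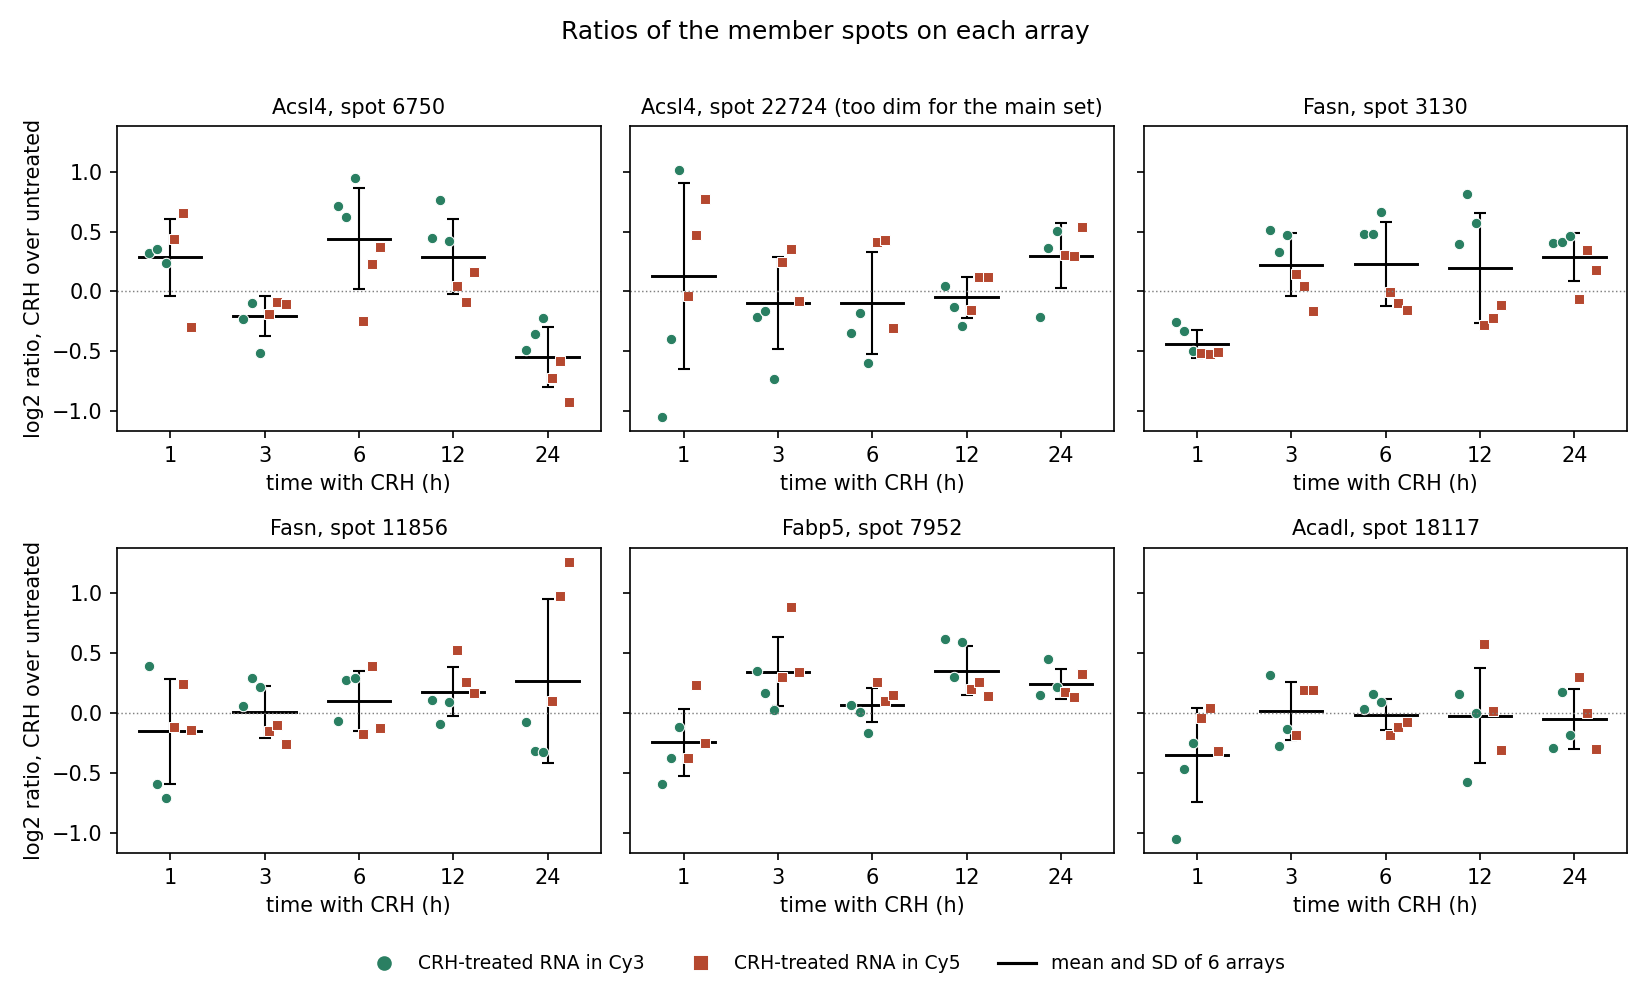
Log2 ratio (CRH-treated to untreated RNA) for the spots of Acsl4, Fasn, Fabp5 and Acadl against time in h, with 1 point for each array and the mean of each time point. Acsl4 spot 6750 fell from a mean of 0.29 at 12 h to -0.55 at 24 h, while Fasn spot 3130 was at -0.44 at 1 h and between 0.19 and 0.29 at later times.

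Acsl4 spot 6750 swung between the treated and the untreated side. At 1 h the ratios ran from -0.30 through a median of 0.34 to 0.66, with replicate 6 alone below 0. At 3 h they ran from -0.52 through -0.15 to -0.09, so all 6 arrays lay below 0, as they did for 2.33% of measured spots. At 6 h they ran from -0.25 through 0.50 to 0.94, a mean of 1.36-fold. Replicate 4 was the array below 0 at 6 h, and only 17 measured spots had a higher mean there (percentile 99.87). At 12 h the ratios ran from -0.09 through 0.29 to 0.77, with replicate 5 below 0. At 24 h they ran from -0.92 through -0.53 to -0.22, a mean 1.46-fold lower in treated cells. All 6 arrays were again below 0, as for 1.95% of spots, and 18 spots had a lower mean (percentile 0.125).

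The arrays of Acsl4 at 24 h lay below all of those at 12 h, by -0.84 on average (separate for 0.543% of spots). Means at 12 h were 0.50 above those at 3 h, but the lowest array of 12 h and the highest of 3 h met at -0.09 (no overlap in 0.577% of spots). Within the day on which 24 h was quantified, the 2 arrays of 12 h, both with treated RNA in Cy5, were at -0.09 and 0.16. Against them the 24 h arrays with treated RNA in Cy5 lay at -0.74 on average, a difference of -0.77. The 3 and 6 h arrays, quantified on 1 day, overlapped through replicate 4 of 6 h. The range of the 5 time means, 0.99, was at percentile 99.7 of measured spots, a value that the choice of the gene already used.

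Both dye orientations gave Acsl4 the same sign at all 5 time points but not the same size. At 6 h the mean was 0.76 where Cy3 marked treated RNA and 0.12 where Cy5 did. At 12 h these means were 0.54 and 0.04. At 24 h they were -0.36 and -0.74, so the arrays with Cy5 on treated RNA gave the lower mean at each of these times. Spot 22724, the other Acsl4 clone, was too dim in 4 arrays to be counted as measured, and with no removal of dim spots its means were 0.13, -0.10, -0.10, -0.05 and 0.30 from 1 to 24 h (SD 0.77, 0.39, 0.43, 0.17 and 0.27). At 24 h 5 of its 6 arrays lay above 0, on the other side from spot 6750.

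Fasn spot 3130 separated 1 h from the later times. At 1 h its ratios ran from -0.52 through a median of -0.50 to -0.25, a mean 1.35-fold lower in treated cells. All 6 arrays were below 0 (3.32% of measured spots), and 127 spots had a lower mean (percentile 0.884). At 3 h the ratios ran from -0.17 through 0.24 to 0.52, with 1 array below 0. At 6 h they ran from -0.15 through 0.24 to 0.67, and at 12 h from -0.28 through 0.14 to 0.81. In both cases the arrays below 0 were among those with treated RNA in Cy5. At 24 h they ran from -0.07 through 0.37 to 0.46, with replicate 4 below 0. The arrays of 1 h lay below all arrays of 3, 6 and 24 h, as was so in either direction for 2.12%, 0.494% and 0.988% of spots, and overlapped those of 12 h.

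After 1 h the means of Fasn above 0 came mainly from the arrays with treated RNA in Cy3. With treated RNA in Cy3 the means at 3, 6, 12 and 24 h were 0.44, 0.54, 0.59 and 0.42. With treated RNA in Cy5 they were 0.01, -0.08, -0.20 and 0.15. Averaged over the time course the orientations differed by 0.46, a size at percentile 71.0 of measured spots. The 2 arrays of 12 h that shared a day with 24 h lay at -0.22 and -0.11, and all 6 of 12 h reached from -0.28 to 0.81. The other Fasn clone, spot 11856, was a dim one, with means of -0.15, 0.01, 0.10, 0.18 and 0.27 (SD 0.44, 0.22, 0.25, 0.20 and 0.68). The sign at 3 h changed without removal of dim spots and with block medians in place of loess. At 24 h its mean was -0.24 where Cy3 marked treated RNA and 0.78 where Cy5 did.

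**Figure D2:**
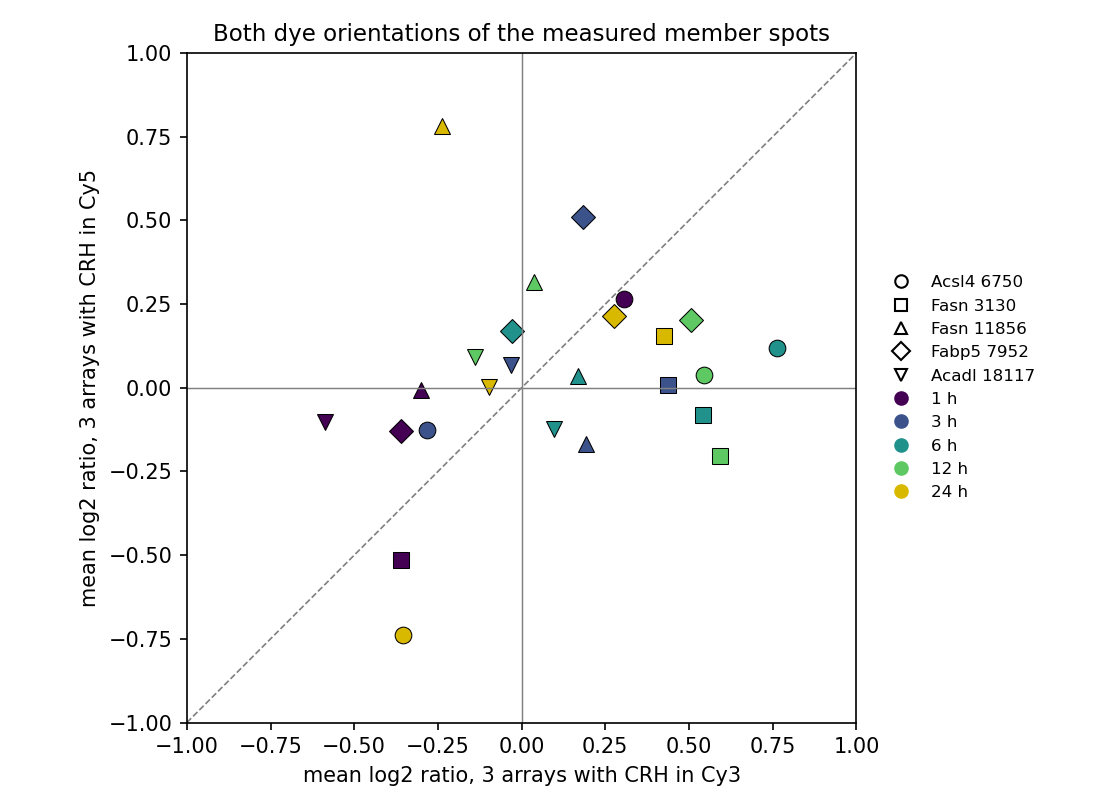
Mean log2 ratio (CRH-treated to untreated RNA) at each time point in h, drawn apart for the 3 arrays with treated RNA in Cy3 and the 3 with it in Cy5. For Fasn spot 3130 the orientations lay apart from 3 h on (0.59 and -0.20 at 12 h) and for Acsl4 spot 6750 at 6 h (0.76 and 0.12).

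Fabp5 had positive means from 3 h on. At 1 h the ratios ran from -0.59 through a median of -0.31 to 0.24, with replicate 5 above 0. At 3 h they ran from 0.03 through 0.32 to 0.88, and all 6 arrays were above 0, as for 4.63% of spots. At 6 h they ran from -0.16 through 0.08 to 0.26. The mean at 6 h, 0.07 (SD 0.14), was thus smaller than the spread between arrays. At 12 h the ratios ran from 0.14 through 0.28 to 0.62, a mean of 1.28-fold, and at 24 h from 0.14 through 0.20 to 0.46. All 6 arrays lay above 0 at both times, as for 2.60% and 2.66% of spots. The orientations of Fabp5 differed by 0.22 in size on average, with a lower mean in Cy3 at 3 h (-0.33, Cy3 minus Cy5) and a higher one at 12 h (0.30). Those of Acadl differed by 0.23 in size on average. Fabp5 was measured by a single clone.

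Acadl lay below 0 in 5 of 6 arrays at 1 h and on both sides of 0 later. At 1 h its ratios ran from -1.05 through a median of -0.28 to 0.04, and replicate 1 held the lowest, with replicate 2 next at -0.46. The mean was 1.27-fold lower in treated cells, at -0.59 where Cy3 marked treated RNA and -0.10 where Cy5 did. Without replicate 1 the mean at 1 h was -0.20. At the 4 later time points the 2 orientations had opposite signs. From 3 to 24 h the means were 0.02, -0.01, -0.02 and -0.05 (SD 0.24, 0.13, 0.40 and 0.25).

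Of the 5 measured spots at 5 time points, 6 of the 25 means had all 6 arrays on one side of 0, and 16 had the same sign in both dye orientations. Among the means of all measured spots, 5% had all 6 arrays on one side and 33.2% had one sign in both orientations. The genes were chosen with these ratios known, so the counts describe them and were not tested. Across the 30 arrays, after the mean of each orientation was taken off, Fasn spot 3130 and Fabp5 had a Pearson correlation of 0.59, Fabp5 and Acadl of 0.51, the 2 Fasn spots of 0.43, and Fasn spot 3130 and Acadl of 0.30. The dim Fasn spot 11856 did not share this, with 0.04 for Fabp5 and -0.001 for Acadl. Acsl4 correlated with the others between -0.20 and -0.01. The 30 arrays share 5 pairs of extracts, so these values are a description. All of Fasn, Fabp5 and Acadl had their lowest mean at 1 h, the time point with a quantification day of its own, and time and day cannot be told apart there.

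Levels in untreated cells were read as the percentile of a spot's intensity among the 22830 clone spots of the same array, which compares a spot with itself only. Fasn spot 3130 had a median percentile of 92.9 over 30 arrays (79.6 to 96.2). Fabp5 had 68.5 (34.2 to 83.7), Acadl 52.8 (34.2 to 65.2) and Acsl4 spot 6750 58.5 (31.3 to 91.6). The dim clones, Acsl4 spot 22724 and Fasn spot 11856, had 21.9 and 23.4. Empty spots had their median at percentile 4.01 and their 95th percentile at 93.7, so single empty spots were as bright as most of these clones.

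The untreated level of Acsl4 spot 6750 moved more than its ratio. By time point its median percentile in untreated cells was 37.2, 58.6, 53.2, 75.4 and 90.4, and in treated cells 46.1, 54.8, 68.1, 78.6 and 84.8. The arrays of 1 h (31.3 to 41.8) and 24 h (86.3 to 91.6) did not overlap, and the difference of medians, 53.2 points, was reached by 22 clone spots, itself included (0.0964%). Within 12 h the untreated level was 47.4 to 63.1 in replicates 1 to 3 and 87.6 to 90.5 in replicates 4 to 6. A difference of this size, 33.7 points, was found in 380 spots (1.66%), and the dye orientation and the set of arrays cannot be told apart there. Over the time course, time, quantification day and array set cannot be told apart either. The treated and untreated channels of an array moved together, as at 12 h, where treated RNA was at 63.6 to 70.3 and 86.9 to 90.6 in the same sets.

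**Figure D3:**
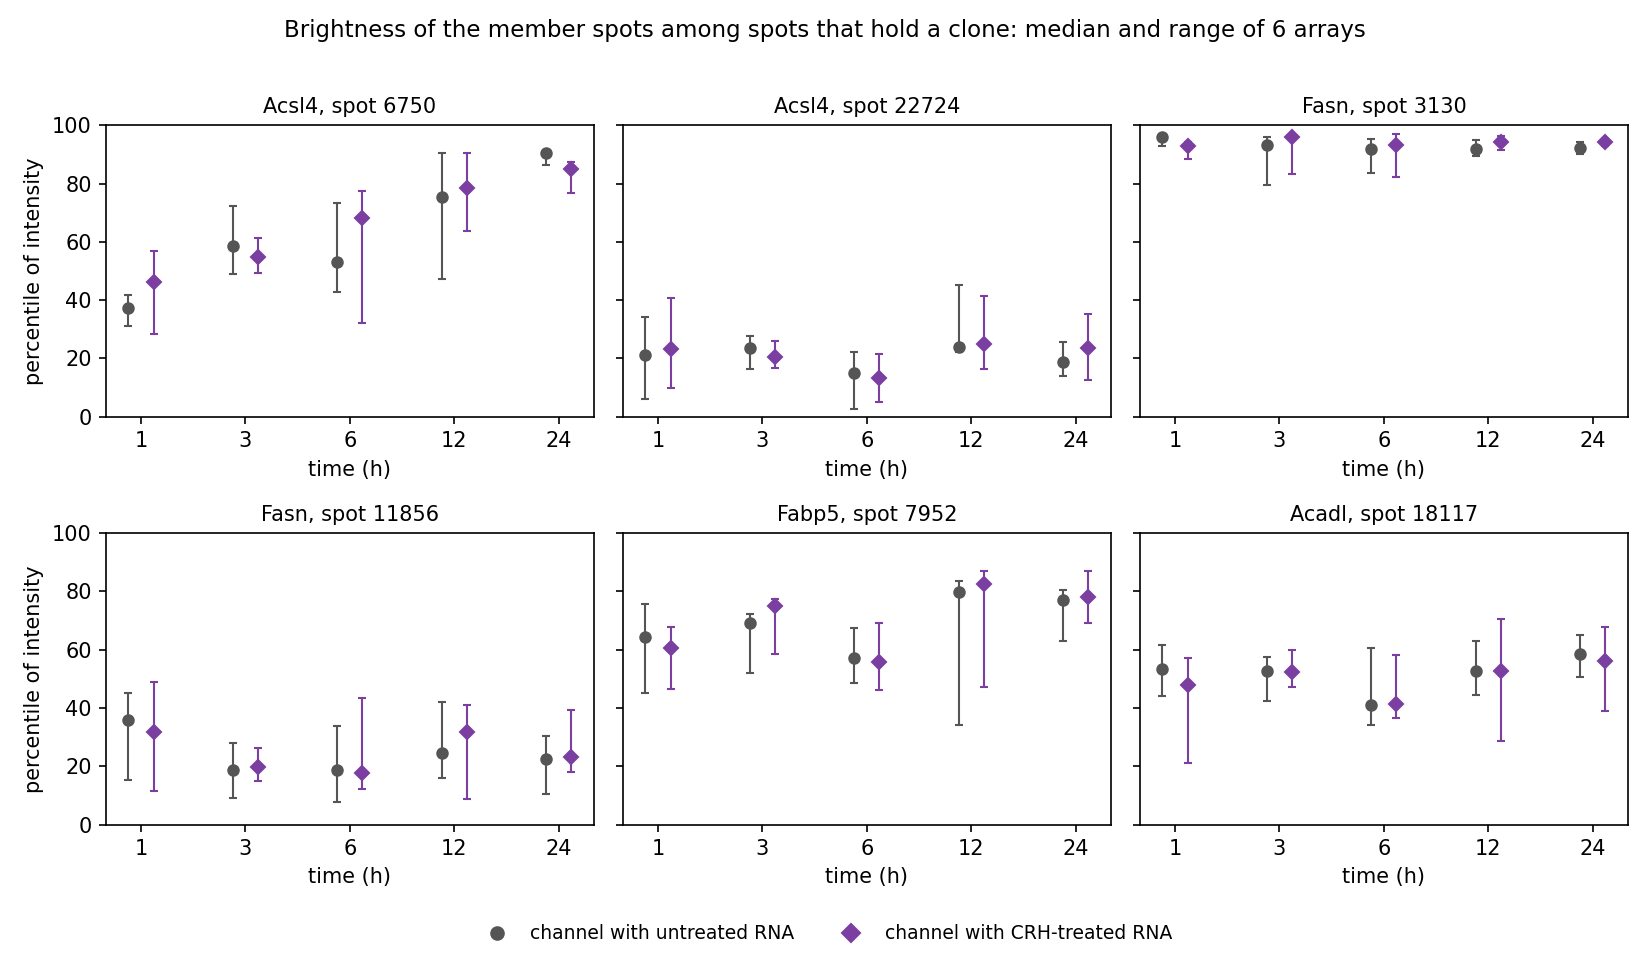
Percentile of spot intensity among the clone spots of an array, in untreated and in CRH-treated RNA, against time in h for each spot of Acsl4, Fasn, Fabp5 and Acadl, with the median as a point and the range of 6 arrays as a bar. Acsl4 spot 6750 went from a median of 37.2 at 1 h to 90.4 at 24 h in untreated cells, while Fasn spot 3130 kept a median of 92.9 over all arrays.

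Of 7 corticotrope marker genes 5 are on the array, and most were bright. In untreated cells Pomc, the precursor of adrenocorticotropic hormone, was at a median percentile of 94.96, Pitx1 at 98.4 and the 2 Neurod1 spots at 97.3 and 82.1, while the corticotrope factors Tbx19 and Nr4a1 were at 39.3 and 22.6. Among markers of other cells, the growth hormone gene Gh was at 25.9, fibroblast markers had a median of 18.9 over 11 spots, and leukocyte markers ran from 12.2 to 87.5 (Itgam). The 5 spots of adipocyte markers ran from 43.3 (Fabp4, a fatty acid binding protein related to Fabp5) to 96.1 (Adipoq), and their part in the levels of the 4 genes was not tested.

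The wider fatty acid pathway was read from 8 lists of 161 genes, 122 of them on the array, and 115 measured spots of 86 genes are not of Acsl4, Fasn, Fabp5 or Acadl. A linear model over all arrays, with time as 5 levels and dye orientation, called 9 of the 115 spots, of 7 genes, for change over time (7.83%) against 5.88% of all measured spots (845) after Benjamini-Hochberg adjustment. The median ratio over all lists stayed between -0.04 and 0.02 at each time point, and that over all measured spots between -0.02 and 0.00. No list spot met the size rule, and limma on the 5 time-point means called none of them for a CRH effect over the time course (8 of all spots, 0.0557%). Before adjustment 8 of the 115 list spots and 774 of all 14375 had a limma p under 0.05, a limit that chance alone passes at that rate. With the quantification day as a further term, 76 of all spots and 0 of the lists passed for change over time, and between 3 and 6 h alone, within 1 day, 14 and 0 passed.

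Activation and uptake, the group of Acsl4, had 7 measured spots of other genes, and 0 were called. Acss2, which makes acetyl-CoA from acetate, had means of 0.26, -0.05, 0.26, 0.31 and 0.01 from 1 to 24 h (adjusted p = 0.336). The group of fatty acid and acyl-CoA binding proteins, to which Fabp5 belongs, had 13 such spots and 0 called. Peroxisomal oxidation (13 spots) and the use of fatty acids in glycerolipids and arachidonate products (19 spots) had 0 called as well.

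Synthesis, elongation and desaturation, the group of Fasn, had 5 of 24 spots called. Both spots of Elovl5, which lengthens polyunsaturated chains, changed over time (adjusted p = 0.0103 for spot 4822 and 0.00735 for spot 16224). Spot 4822 had means of -0.24, 0.23, 0.18, 0.24 and 0.02, and spot 16224 of -0.24, 0.20, 0.24, 0.24 and -0.12. At 1 h spot 4822 ran from -0.58 through a median of -0.24 to 0.08, and at 3 h from 0.14 through 0.24 to 0.28. The 2 times did not overlap, as was so in either direction for 2.12% of measured spots, and the spot was called on these same ratios. Both clones thus lay low at 1 h and higher on average at 3, 6 and 12 h. The first 4 means of Fasn spot 3130 had the same signs. These signs depended in part on the dye. At 12 h spot 16224 averaged 0.57 where Cy3 marked treated cells but -0.09 for the opposite labelling. Spot 4822 was above 0 either way (0.42 and 0.06). Fasn spot 3130 was below 0 at 6 and 12 h (-0.08 and -0.20) where Cy5 marked treated cells. Elovl6, which lengthens palmitate, changed (spot 18506, adjusted p = 0.0457) with its highest mean at 12 h, 0.42, where arrays ran from -0.10 to 0.91. With treated RNA in Cy3 the Elovl6 mean at 12 h was 0.76, and with it in Cy5 0.09. Elovl3 changed (spot 7075, adjusted p = 0.0365) with -0.52 at 12 h, which came from -1.01 in arrays with treated RNA in Cy5 and -0.04 in the others. For Scd2, a desaturase of saturated acyl-CoA, 1 of 6 spots changed (spot 20130, adjusted p = 0.0111), with means of 0.14, -0.24, 0.13, 0.04 and 0.15, and 2 other spots were at -0.37 and -0.42 at 24 h without passing.

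Beta-oxidation in mitochondria, the group of Acadl, had 1 of 19 spots called. It belongs to Etfa, a subunit of the flavoprotein that takes electrons from acyl-CoA dehydrogenases such as Acadl (spot 5188, adjusted p = 0.0407), with a mean of -0.39 at 24 h and arrays from -0.55 to -0.10, while a second Etfa spot did not pass. Among acyl-CoA thioesterases, which undo the reaction of Acsl4, 2 of 6 spots were called, both of Acot11. Spot 15025 (adjusted p = 0.0235) had means of -0.27, 0.17, -0.34, 0.36 and -0.08 and spot 15496 (adjusted p = 0.0316) of 0.25, -0.15, -0.05, -0.33 and -0.02, so the means of the clones had opposite signs at 1, 3 and 12 h. Of 14 spots of regulators, 1 passed, of the coactivator Ppargc1b (spot 838, adjusted p = 0.0468), at -0.27 at 3 h. When each of the 30 arrays was left out in turn, both Elovl5 spots and Scd2 spot 20130 passed in all 30 cases, but Elovl6 in 8, Etfa in 10 and Ppargc1b in 9. A change over time that depended on dye orientation passed for 1758 spots (12.2%) and 16 of the lists, among them Elovl5 spot 4822 (adjusted p = 0.0279), Scd2 spot 20130 (0.0470) and Etfa spot 5188 (0.0300).

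**Figure D4:**
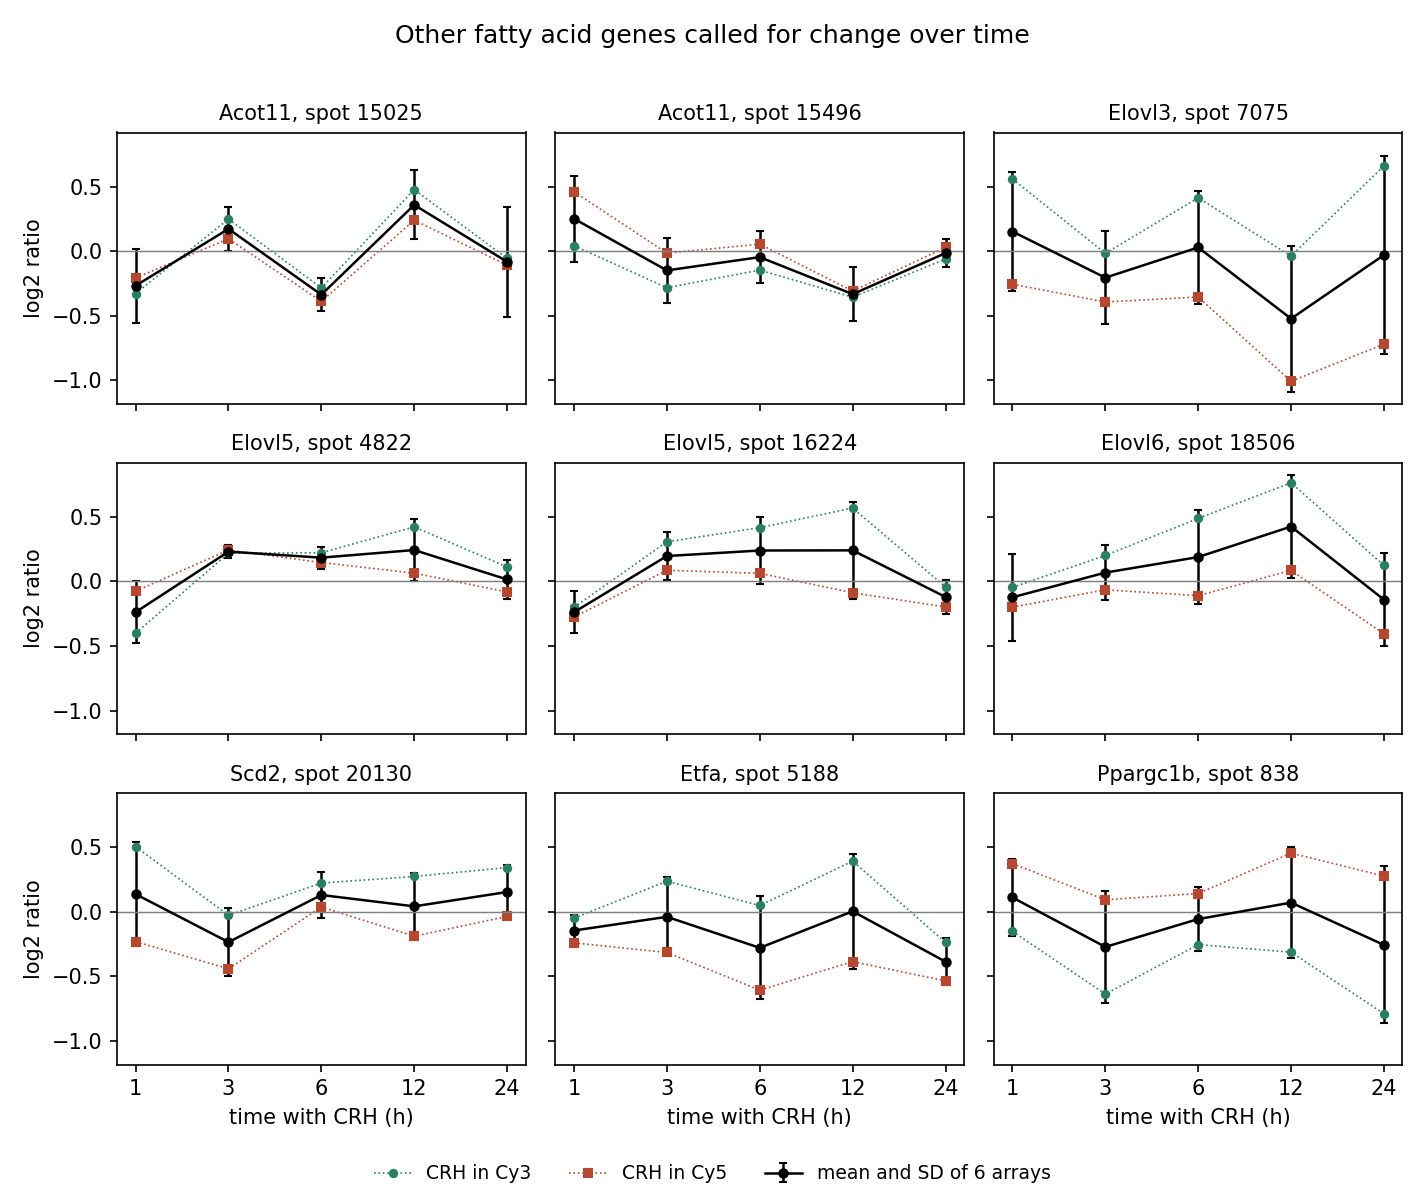
Mean log2 ratio (CRH-treated to untreated RNA) at each time point in h for the 9 spots of the fatty acid lists called for change over time, each labelled with its gene and spot number. Both Elovl5 spots were at -0.24 at 1 h and from 0.18 to 0.24 at 3, 6 and 12 h.

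The spots most like each gene were found by the Pearson correlation over the 30 arrays among 10170 spots that carry a gene name. For Acsl4 spot 6750 they were Hmgcs1 (r = 0.76), spot 19583 (0.76) and Scd2 spot 14287 (0.71). Hmgcs1 is the sterol synthesis enzyme that makes 3-hydroxy-3-methylglutaryl-CoA. The array names spot 19583 fibroblast growth factor inducible 14, but the study lists it as the RNA helicase gene Ddx3x. Scd2 spot 14287 was at -0.37 at 24 h and, unlike Scd2 spot 20130, was not called for change over time. Hmgcs1 spot 6705 had means of -0.10, 0.02, 0.47, 0.41 and -0.81 and lies in the same print-tip block as the Acsl4 spot, block 14. A second Hmgcs1 spot, 16977, in another block, had -0.57 at 24 h (SD 0.55) and correlated with Acsl4 at 0.59. The 323 other measured spots of block 14 had a median correlation with Acsl4 of 0.02, against 0.01 elsewhere.

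For Fasn spot 3130 2 of the 3 most similar spots are given, those of the glycolytic enolase 3 (r = 0.84) and the sorting nexin Snx11 (0.83), the last in the same block. For Fabp5 they were signal sequence receptor delta (0.80), aldehyde reductase (0.75) and peroxiredoxin 2 (0.74). For Acadl they were ribosomal protein L18 (0.71), Papss2 (0.70) and islet cell autoantigen 1 (0.70). Of all measured spots, 99% correlated with Fasn below 0.66.

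**Figure D5:**
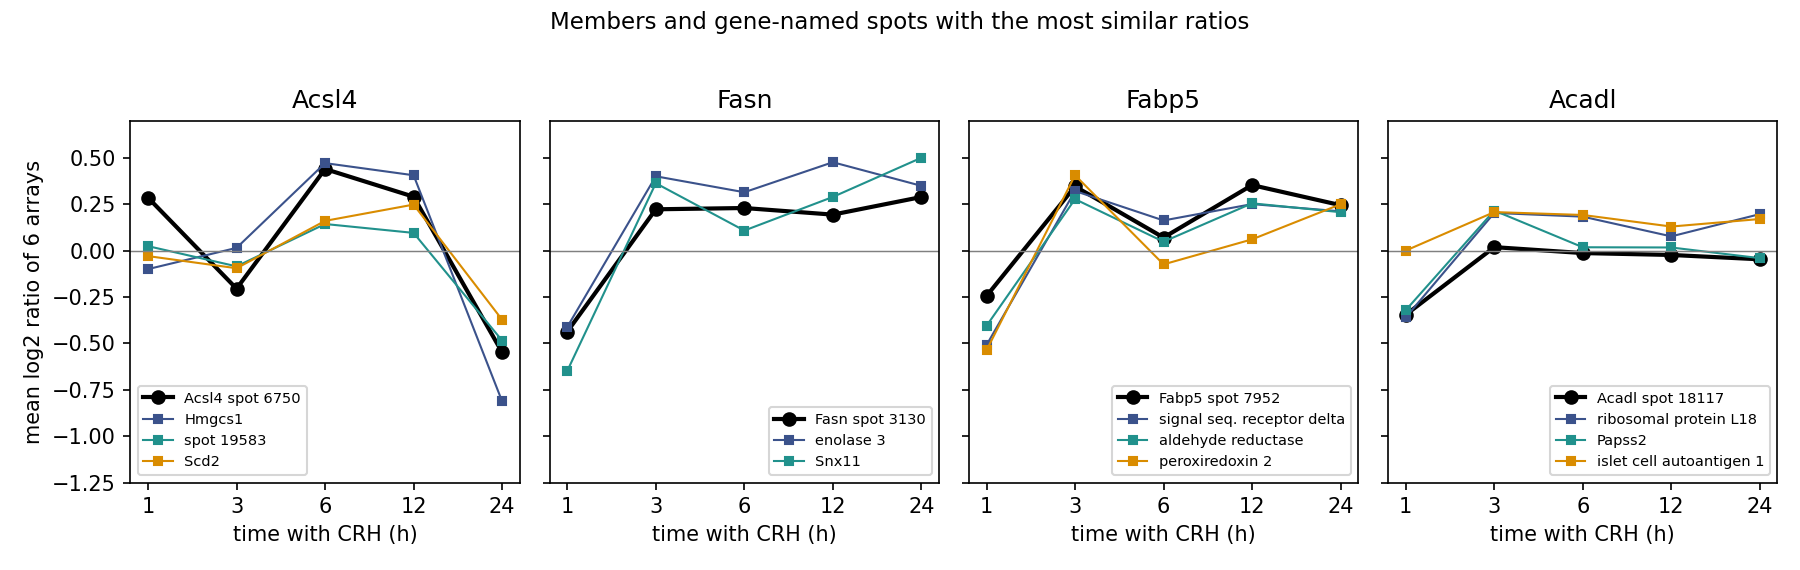
Mean log2 ratio (CRH-treated to untreated RNA) against time in h for Acsl4, Fasn, Fabp5 and Acadl, each with gene-named spots of high correlation over 30 arrays (3 for each gene, 2 for Fasn). Acsl4 and Hmgcs1 both had their lowest means at 24 h (-0.55 and -0.81).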

How the data were processed

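Per array the authors deposited scanner intensities of both dyes with neither background subtraction nor normalization, and a table of log2 ratios of 12593 spots, which the authors normalized by loess after removal of dim spots. In 1 file the first channel is Cy5. The ratios used here were computed from the deposited intensities: of 24192 spots, 1170 empty and 192 control spots were left out, and spots in the dimmest 10% of a channel on at least 1 array were removed, which left 14375. Log2 ratios were corrected by loess on mean intensity in each of 48 print-tip blocks (span 0.75, 4 iterations), averaged over the 6 arrays of a time point, and correlated with the deposited log2 ratios at 0.979 to 0.992. R 4.3.3 was used for linear models (time and dye orientation, F test, Benjamini-Hochberg over all measured spots) and limma 3.58.1 for the time-point means, with calls at an adjusted p under 0.05, and matplotlib 3.10.9 for figures. The steps were tested on simulated data. Symbols came from RefSeq synonyms for 6670 spots. The genes, the lists and the rule for named genes were chosen with earlier results of these data known. Named were the 4 genes, up to 6 called genes of each list, and the 3 spots most similar to each gene, of which 1 for Fasn is not reported here. Alternatives changed the removal of dim spots, the background (normexp with offset 50), the normalization, the source of ratios, the arrays and the model.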

Additional observations from a re-analysis of the deposited data

Results flagged for a closer look

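Acsl4 spot 6750 at 3 h had 1 array apart from the others. Replicate 3 was at -0.52 while the other 5 ran from -0.23 to -0.09, a gap of 0.663 of the whole range. Of 70 groups of 6 arrays so examined this was the only one, and chance alone gives about 1 in 20.

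The change over time of 9 other fatty acid spots differed between time points by the F test of the linear model, after adjustment over all measured spots. The adjusted p was 0.01026 and 0.007348 for Elovl5 (spots 4822 and 16224), 0.01109 for Scd2, 0.02354 and 0.03158 for Acot11 (spots 15025 and 15496), 0.03648 for Elovl3, 0.04067 for Etfa, 0.04568 for Elovl6 and 0.04675 for Ppargc1b. Time and quantification day cannot be told apart for most of these arrays.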

How the results depend on the processing

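Of 165 time-point means of the 4 genes under another background, filter, normalization or source of ratios, 164 moved by less than 1 SD between arrays. The exception was the dim Fasn spot 11856 at 3 h, at 0.29 with the 10th percentile subtracted. The sign differed in 4 of these, all of means of at most 0.0231 in size, and in 9 of 50 means from 1 dye orientation, such as Fasn spot 3130 in Cy5 alone at 6 h (-0.08 against 0.23) and 12 h (-0.20 against 0.19). With block medians in place of loess, 1 spot of the genes met the size rule, Acsl4 at 24 h (-0.59), as it did without 24 h replicate 2 (-0.59) or 3 (-0.61). So the count ranged from 0 to 1. For change over time, all spots called went from 845 to 76 with the quantification day as a term, 14 for 3 against 6 h and 34 with hours as a number. The list spots went from 9 to 0 in each. With the day as a term, 1 h could not be compared with any other time. Leaving out single arrays gave 547 to 938 and 4 to 11, the lowest without 1 h replicate 3 (547; lists 5) and 2 (561; lists 4), with 4 or 5 list spots also without 12 h replicate 2, 4 or 5. The interaction, called for 1758 spots and 16 of the lists, ranged from 1396 to 1747 and from 8 to 17 with single arrays left out. The lists had 8, 10 and 10 without 1 h replicates 2, 3 and 5. Other processing gave from 1396 with the deposited ratios to 2006 with block medians, and from 11 to 19 in the lists. The 8 calls for a CRH effect became 0 without removal of dim spots, with the 10th percentile subtracted, with a robust and trended prior or without 12 h, 39 without 1 h, and 5 without 3, 6 or 24 h. Single arrays left out gave 6 to 9, and 0 in the lists. Across all alternatives except single arrays left out, 44 of 105 tests of the 9 list spots no longer passed. These include the models above with the quantification day, 3 against 6 h alone and hours as a number. Of 75 correlations of similar spots under such alternatives, 7 moved.

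By the size rule 58 spots were higher at some time point and 25 lower. Higher counts were 173 without removal, 38 with the lowest 20% removed, 245 with the 10th percentile subtracted and 3 at 2-fold. Lower counts were 112, 163 with the 10th percentile subtracted, 41 with block medians and 0 at 2-fold. Single arrays left out gave 56 to 79 and 19 to 44 (44 without 1 h replicate 4). List spots past it rose from 0 to 1 without removal (Elovl6 spot 4333) and 2 with the 10th percentile subtracted (Thrsp, and Acot11 spot 15025).

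Same-numbered arrays of different time points correlated from -0.03 to 0.05 in their deviations, so the numbers do not pair them. With replicate number as a block in place of dye orientation, 602 of all spots and 4 of the lists changed over time. The 4 were both Elovl5 spots, Acot11 spot 15025 and Scd2 spot 20130. For a CRH effect, a fit with this block called 10 spots, but it took all 30 arrays as units and not the time-point means. Hybridisations of the same extracts thus counted as replicates in that fit. No depth is known for arrays beyond the intensities, and spots below the 10% limit were not measured.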
